A study of Homo sapiens with 5 samples.

Results

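The enzymes that make serine from glucose and pass its carbon into the folate pool were examined in MDA-MB-231 cells exposed to SAHA. The set holds 9 genes, namely PHGDH, PSAT1, PSPH, SHMT1, SHMT2, MTHFD1, MTHFD2, MTHFD1L and FPGS, of 19775 genes measured. The array annotation gives 18 probe sets to these genes alone and lists 5 more for a member together with other genes. MDA-MB-231 cells descend from a breast tumour and look mesenchymal, and SAHA (suberoylanilide hydroxamic acid, vorinostat) inhibits histone deacetylases. The 2 SAHA arrays came from MDA-MB-231 cells given 2 uM SAHA and the 3 DMSO arrays from the same line given the vehicle, and both groups were collected at 30 h. The extraction text of the labels also speaks of a transfection that no other label explains. Nothing in the labels says that replicates were separate cultures, so p-values cover only array-to-array spread, which may be technical. In RNA from whole cultures, fewer cells that express a gene and less RNA per cell cannot be told apart.

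The serine pathway leaves glycolysis at phosphoglycerate. PHGDH oxidises that intermediate, PSAT1 adds the amino group and PSPH removes the phosphate to give serine. Serine hydroxymethyltransferases (SHMT1 in the cytosol, SHMT2 in mitochondria) then move a carbon unit from serine to tetrahydrofolate and release glycine. MTHFD2 and MTHFD1L carry that unit to formate in mitochondria, MTHFD1 takes formate up into the cytosolic folate pool, and FPGS adds the glutamate tail that holds folates inside cells. The carbon units serve purine and thymidylate synthesis and the methionine cycle. ATF4, the transcription factor of the amino acid and integrated stress response, is known to induce PHGDH, PSAT1, SHMT2 and MTHFD2, and MDA-MB-231 is known as a line with little PHGDH protein.

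After SAHA the entry enzyme PHGDH rose, and 5 of the 6 folate enzymes downstream fell. MTHFD1L was not called, but its own probe sets lay below the median intensity on all arrays. Brighter probe sets listed for MTHFD1L together with other genes fell (log2 fold -1.58 and -1.16). At gene level, with the brightest probe set standing for each gene, 2 of the 9 genes were called higher (PHGDH and PSPH) and 5 lower (SHMT1, SHMT2, MTHFD1, MTHFD2 and FPGS), by limma with Benjamini-Hochberg adjustment over 19775 genes and a threshold of 0.05. In the same fit 29.6% of all genes were called, 14% higher and 15.6% lower. These shares include dim genes. With the dimmest 40% of the 19775 genes dropped, 2721 genes were called higher and 3175 lower. Of the members, 2 were then higher and 4 lower, with SHMT1 and MTHFD1L not tested. The median log2 fold of the 9 genes was -0.32, against -0.03 for all genes. The SAHA arrays lay outside the DMSO range for 8 of the 9 genes, an arrangement found for 48.1% of all genes. They lay above it for 2 of the 9 and below it for 6, against 22.1% and 26% of all genes. The calls for MTHFD2, SHMT2, MTHFD1, FPGS and PHGDH held with each array left out in turn, whereas those for PSPH and SHMT1 did not. Wherever a SAHA array was left out, a gene's own spread came from the DMSO arrays only. Calls kept or gained in those fits say nothing on the spread between SAHA arrays.

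The array DMSO 1 stood apart in RNA integrity. Its log2 difference between 3' and 5' control probe sets of ACTB, the cytoskeletal actin, was 3.29, against 2.04 to 2.22 on the other 4 arrays. Without DMSO 1, still 2 members were called higher and 5 lower, and of all 19775 genes 2075 were called higher and 2353 lower. The 24 probe sets for polyadenylated control RNAs of bacterial origin stood higher on the SAHA arrays, by 0.39 at the median and by 0.17 to 0.66 over all of them (log2). Centring the arrays on these controls moved the median log2 fold of all genes to -0.40. The share of called genes that were higher moved to 8.56%, against 47.2%. Of all 19775 genes, 1380 were then called higher and 14740 lower, and of the members 1 was called higher and 7 lower. Calls after this centring treat a shift shared by all genes of an array as separate for each gene. Of 6 genes fixed as markers of this line, 5 lay above the median intensity of each array, including VIM, and SPARC lay below it on all arrays. The summed intensity of the 6 was 44626 to 48308 on SAHA arrays and 50242 to 50967 on DMSO arrays. Of 9 luminal and epithelial markers, 6 lay above the median on all arrays, with sums of 18754 to 21534 on SAHA arrays and 17151 to 18403 on DMSO arrays, KRT8 and KRT18 being the brightest. In that list CDH1 was called higher (log2 fold 1.64), ERBB2, GATA3 and EPCAM were called lower (-0.64, -0.26 and -0.72), and the median was -0.027. The 3 leukocyte markers summed to 349 on both SAHA arrays and to 251 to 279 on DMSO arrays, and the 4 endothelial markers to 482 to 485 on SAHA arrays and 357 to 394 on DMSO arrays. CD14 (log2 fold 0.87) and KDR (1.14) were called higher, PTPRC was called lower (-0.34), and CD3E, PECAM1, CDH5 and VWF were not called. The part of RNA integrity, the controls and these markers in the results was not tested.

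**Figure D1:**
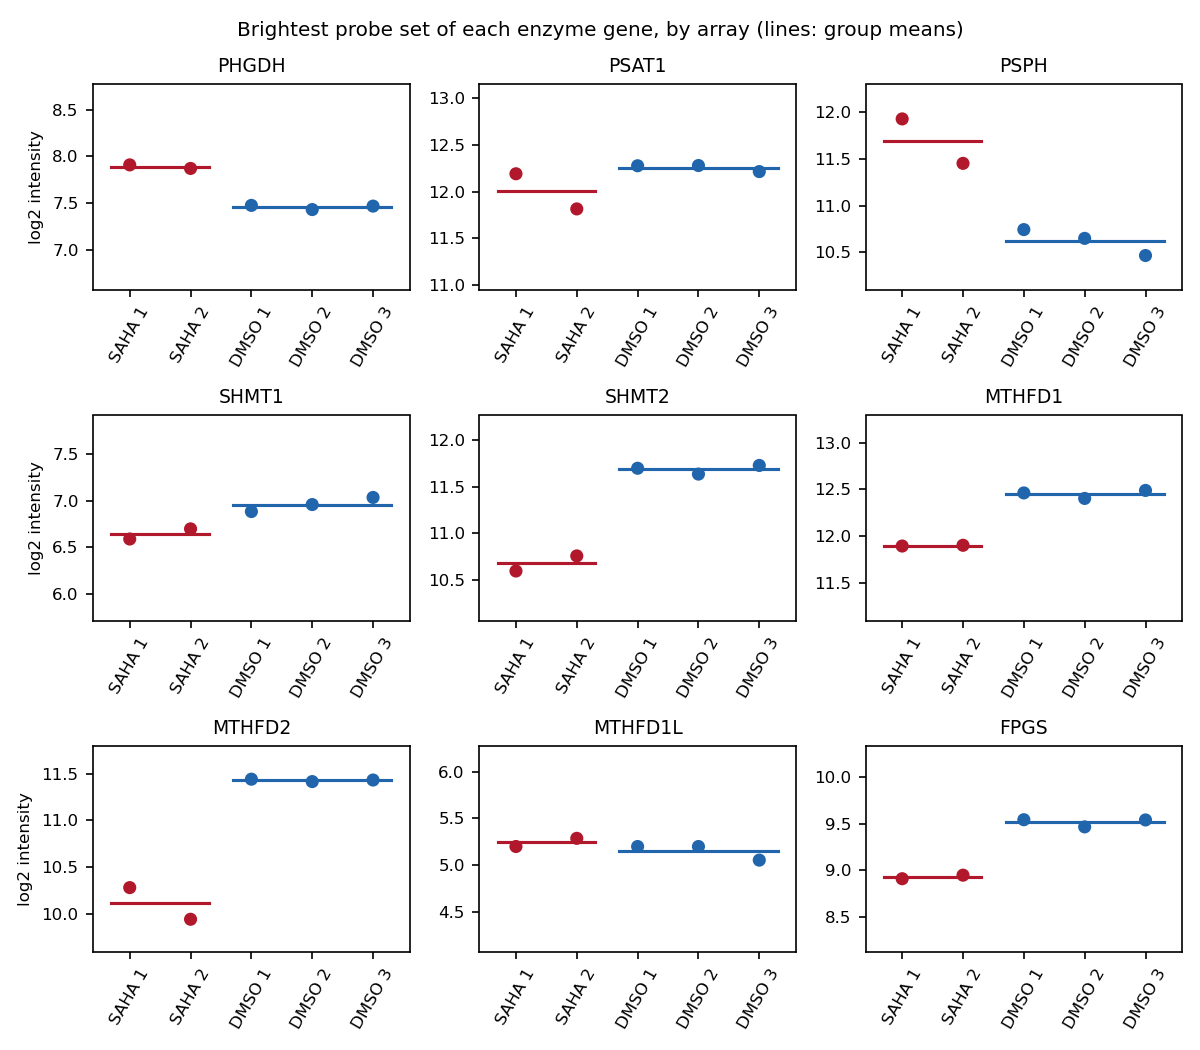
Log2 intensity of the brightest probe set of each gene on the 2 SAHA arrays (red) and 3 DMSO arrays (blue), with group means as lines and the same span on each vertical axis. PHGDH and PSPH lie higher on both SAHA arrays, MTHFD1L overlaps, and the other 6 genes lie lower on both SAHA arrays, with PSAT1 not passing the test.

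The stretches just upstream of transcription starts are shown for 4 genes, since PHGDH and MTHFD2 were called in opposite directions and MTHFD1 and MTHFD1L carry motifs of known regulators of the pathway. Each is the 250 bases before a start, 5' to 3' on the plus strand of GRCh38.p14, from RefSeq. Capitals mark CACGTG, the E-box that MYC and related factors bind, and TGATGNAAN, the C/EBP-ATF response element that ATF4 binds.
PHGDH, chr1:119711684-119711933: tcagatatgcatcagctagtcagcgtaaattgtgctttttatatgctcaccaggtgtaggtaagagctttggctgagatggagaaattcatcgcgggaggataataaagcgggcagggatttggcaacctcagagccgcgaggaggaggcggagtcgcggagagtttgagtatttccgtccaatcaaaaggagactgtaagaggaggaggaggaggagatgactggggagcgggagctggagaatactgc
MTHFD1, chr14:64388103-64388352: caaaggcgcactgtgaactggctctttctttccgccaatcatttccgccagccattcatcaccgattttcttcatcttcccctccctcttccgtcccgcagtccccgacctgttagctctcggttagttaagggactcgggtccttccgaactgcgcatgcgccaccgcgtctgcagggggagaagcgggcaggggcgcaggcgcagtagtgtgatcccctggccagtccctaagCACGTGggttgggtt
MTHFD2, chr2:74198365-74198614: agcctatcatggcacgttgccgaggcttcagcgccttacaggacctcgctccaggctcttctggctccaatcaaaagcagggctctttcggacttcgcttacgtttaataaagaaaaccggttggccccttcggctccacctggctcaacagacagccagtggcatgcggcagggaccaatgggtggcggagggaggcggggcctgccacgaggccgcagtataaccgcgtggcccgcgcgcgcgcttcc
MTHFD1L, chr6:150866197-150866446: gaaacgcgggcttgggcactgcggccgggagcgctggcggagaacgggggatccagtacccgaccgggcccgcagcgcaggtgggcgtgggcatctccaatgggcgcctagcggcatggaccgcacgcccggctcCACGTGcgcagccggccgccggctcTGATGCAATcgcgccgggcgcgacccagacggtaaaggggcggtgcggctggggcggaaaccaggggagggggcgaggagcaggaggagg

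Windows of 300 bases, from 250 before to 50 after a start, were searched for both motifs on both strands. Of the 9 genes, 7 had such windows in the table used, 12 windows in all. The E-box stood in 5 of the 12 windows and in 7.26% of all 35116 windows. Those 5 belong to 3 genes (MTHFD1, MTHFD1L and 1 of the 3 windows of FPGS), and those of MTHFD1L overlap and share the same copy. A share by gene over all genes was not computed, so enrichment was not tested. The C/EBP-ATF response element stood in windows of MTHFD1L only, in 3 windows that overlap and share the same copy, and in 3.61% of all windows. Counted from the 3 starts that copy begins at 25, -90 and -129, so it lies after 1 start and before the others. A further MTHFD1L window, at chr6:151006758-151007057, held neither motif. A match is a description of letters and not a site of binding. PHGDH, MTHFD2, PSAT1 and SHMT1 held neither run of letters in their windows.

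Of the serine synthesis enzymes, PHGDH is the committed step. Its probe set read 240.3 and 234 on SAHA 1 and SAHA 2, against 178, 172 and 177 on DMSO 1, DMSO 2 and DMSO 3. The groups did not overlap, and replicates differed little in either. The log2 fold was 0.43 ± 0.04 (SE; 95% interval 0.33 to 0.54; limma adjusted p = 0.0025). With each array left out in turn it stayed between 0.41 and 0.45 (limma adjusted p = 0.0139 to 0.02). Centred on the polyadenylated controls it was 0.06 (limma adjusted p = 0.651).

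PSAT1, the transaminase of the pathway, had 4672 and 3599 on the SAHA arrays, against 4959, 4967 and 4749 on the DMSO arrays. SAHA 1 lay close to the DMSO arrays and SAHA 2 well below them. The mean change was -0.25 ± 0.12 on the log2 scale (SE; adjusted p = 0.211, limma). Without SAHA 1 it was -0.44 and without SAHA 2 -0.066. Centred on the polyadenylated controls it was -0.63 ± 0.13 (SE; limma adjusted p = 4.2e-05). The SE of PSAT1 did not shrink there. That p-value treats a shift shared by all genes of an array as separate for each gene, so it overstates the certainty for PSAT1. Its other probe set, 220892_s_at, read 447 and 415 on SAHA arrays, against 491, 576 and 581 on DMSO arrays, giving -0.35 ± 0.10 on the log2 scale (SE; adjusted p over probe sets = 0.0733, limma). That probe set was called lower without DMSO 1 (-0.43, limma adjusted p = 0.0332), and not without DMSO 2 or DMSO 3 (0.215 and 0.211). Without SAHA 1 its log2 fold was -0.40 and without SAHA 2 -0.29. It was also called lower with quantile normalization applied again and without dim probe sets (limma adjusted p = 0.0439 and 0.0411).

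PSPH, the phosphatase that completes serine, gave probe sets that disagreed. The brightest, 205048_s_at, read 3902 and 2806 on SAHA arrays, against 1716, 1608 and 1416 on DMSO arrays. Both SAHA arrays were higher, with a wide gap between them. Its log2 fold was 1.07 ± 0.17 (SE; limma adjusted p = 0.0112), and limma's adjusted p was 0.0584, 0.0578 and 0.0524 when DMSO 2, DMSO 3 or SAHA 1 was left out.

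A second PSPH probe set, 205194_at, read 514 and 316 on SAHA arrays, against 671, 707 and 675 on DMSO arrays. It lay lower on both SAHA arrays, the opposite side from the brightest one, giving -0.76 ± 0.22 on the log2 scale (SE; adjusted p over probe sets = 0.0783, limma). Its log2 fold was -1.11 without SAHA 1 and -0.41 without SAHA 2, so the SAHA arrays gave unlike sizes on the same side. The third, 244819_x_at, was dim at 29.3 to 30.2 on SAHA arrays and 30.2 to 30.6 on DMSO arrays. PSPH lies at chr7:56011064-56051444 and a pseudogene, PSPHP1, at chr7:55764797-55773683 (GRCh38.p14). The name of 205048_s_at marks sequence shared between transcripts or genes, and whether it reads PSPHP1 was not tested. With the probe sets averaged PSPH gave a log2 fold of 0.09 (limma adjusted p = 0.627), so its direction depends on the probe set.

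SHMT2, the mitochondrial hydroxymethyltransferase and the main source of carbon units in many cancer cells, fell in all 3 of its probe sets. The brightest, 214096_s_at, read 1550 and 1734 on SAHA arrays, against 3323, 3183 and 3393 on DMSO arrays. The groups were far apart compared with their replicates. The fold was 2.01 lower after SAHA, or -1.01 ± 0.07 on the log2 scale (SE; adjusted p = 0.00113, limma).

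The probe set 214095_at read 277 and 272 on SAHA arrays, against 667, 568 and 627 on DMSO arrays (log2 fold -1.17 ± 0.08, SE; limma adjusted p over probe sets = 0.00216). The probe set 214437_s_at read 511 and 475 on SAHA arrays, against 758, 959 and 973 on DMSO arrays (log2 fold -0.85 ± 0.13, SE; limma adjusted p over probe sets = 0.0149). All 3 thus lay lower on both SAHA arrays. DMSO 1 was the lowest DMSO array for 214437_s_at, and leaving out DMSO 2, DMSO 3, SAHA 1 or SAHA 2 ended its call (adjusted p = 0.0713 to 0.101, limma).

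SHMT1, the cytosolic counterpart, had to itself a probe set little brighter than the array medians of 88.8 to 91.2. That probe set, 231701_s_at, read 96.3 and 104 on SAHA arrays, against 118, 124 and 131 on DMSO arrays. The groups did not overlap, and the log2 fold was -0.32 ± 0.07 (SE; limma adjusted p = 0.0258). The call ended with any array other than DMSO 1 left out (limma adjusted p = 0.0637 to 0.126). Its other probe set, 217304_at, held the value 42.3 on all 5 arrays and so carries no information on change.

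A pair of brighter probe sets is listed for SHMT1 together with the microRNA gene MIR6778, which lies at chr17:18340814-18340886, within SHMT1 at chr17:18327873-18363550 (GRCh38.p14). Probe set 224954_at read 956 and 860.1 on SAHA arrays, against 2040, 1889 and 1993 on DMSO arrays. Probe set 209980_s_at read 218 and 193 on SAHA arrays, against 434, 448 and 522 on DMSO arrays. Both fell, by 1.12 ± 0.07 and 1.18 ± 0.11 on the log2 scale (SE; limma adjusted p = 0.00185 and 0.0039 in a fit of 42892 probe sets, 22.2% of which were called and 11.2% called lower). They were not counted for SHMT1, because the annotation does not give them to 1 gene. SHMT1 was thus called by its own probe set at a fold of 1.24 lower, while the probe sets shared with MIR6778 stood 2.18 and 2.27 times lower.

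MTHFD2, the mitochondrial dehydrogenase and cyclohydrolase, had the lowest fold of the 9 genes. It read 1244 and 984 on SAHA arrays, against 2782, 2733 and 2765 on DMSO arrays. The DMSO arrays were nearly alike and both SAHA arrays lay far lower, SAHA 2 the lower of them. The log2 fold was -1.32 ± 0.11 (SE; 95% interval -1.60 to -1.03; limma adjusted p = 0.00185), and 231 of the 19775 genes had a log2 fold this low or lower. With each array left out in turn it ranged from -1.49 to -1.15 (limma adjusted p = 0.0138 to 0.0197).

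The other MTHFD2 probe set, 234976_x_at, lay near the array medians. It read 84.2 and 60.7 on SAHA arrays, against 97.2, 96.2 and 104 on DMSO arrays, giving -0.47 ± 0.15 on the log2 scale (SE; adjusted p over probe sets = 0.107, limma). It lay on the same side as the bright one without passing the test, with -0.71 without SAHA 1 and -0.23 without SAHA 2.

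MTHFD1, the trifunctional cytosolic enzyme, read 3800 and 3821 on SAHA arrays, against 5635, 5410 and 5741 on DMSO arrays. Replicates lay close together and the groups did not overlap. It fell by 0.55 ± 0.04 on the log2 scale (SE; limma adjusted p = 0.00175). A dim second probe set, 239846_at, read 26.9 and 25.2 on SAHA arrays, against 20.6, 25.2 and 22.3 on DMSO arrays (log2 fold 0.20 ± 0.10, SE; limma adjusted p over probe sets = 0.258). With both averaged, the log2 fold of MTHFD1 was -0.18 (limma adjusted p = 0.0546).

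MTHFD1L, the mitochondrial formate ligase, had only dim probe sets to itself. The brighter, 225518_x_at, read 36.7 and 39 on SAHA arrays, against 36.7, 36.7 and 33.2 on DMSO arrays. The groups overlapped, and the log2 fold was 0.09 ± 0.07 (SE; 95% interval -0.08 to 0.27; limma adjusted p = 0.378). The other, 1561125_at, gave -0.06 ± 0.05 (SE; limma adjusted p over probe sets = 0.513). Centred on the polyadenylated controls the fold of 225518_x_at turned to -0.28 (limma adjusted p = 0.0334, with the limit given for PSAT1).

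Brighter probe sets are listed for MTHFD1L together with LOC101928195 and LOC100996643, which RefSeq places on chromosome 9 as transcribed pseudogenes. Probe set 225520_at read 344 and 282 on SAHA arrays, against 987, 853 and 960.2 on DMSO arrays. Probe set 231094_s_at read 173 and 114 on SAHA arrays, against 321, 296 and 323 on DMSO arrays. Both lay lower on both SAHA arrays and fell, by 1.58 ± 0.12 and 1.16 ± 0.19 on the log2 scale (SE; limma adjusted p = 0.00257 and 0.0176). The first is lower than any probe set that a member has to itself, but the annotation does not say which of the 3 genes it reads.

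The last shared probe set, 212995_x_at, is listed for PHGDH with MZT2A and MZT2B. It read 2776 and 2784 on SAHA arrays, against 2700.0, 3587 and 3486 on DMSO arrays. DMSO 1 lay below both SAHA arrays, and the log2 fold of -0.22 ± 0.14 (SE) did not pass (limma adjusted p = 0.36). It did not show the rise seen for the probe set of PHGDH alone.

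FPGS, the folylpolyglutamate synthase on which retention of folates and antifolate drugs depends, had 1 probe set. It read 482 and 494 on SAHA arrays, against 746, 708 and 745 on DMSO arrays. The groups did not overlap, and FPGS fell by 0.59 ± 0.05 on the log2 scale (SE; limma adjusted p = 0.00162). With each array left out in turn the log2 fold was -0.61 to -0.57 (limma adjusted p = 0.0102 to 0.0222).

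**Figure D2:**
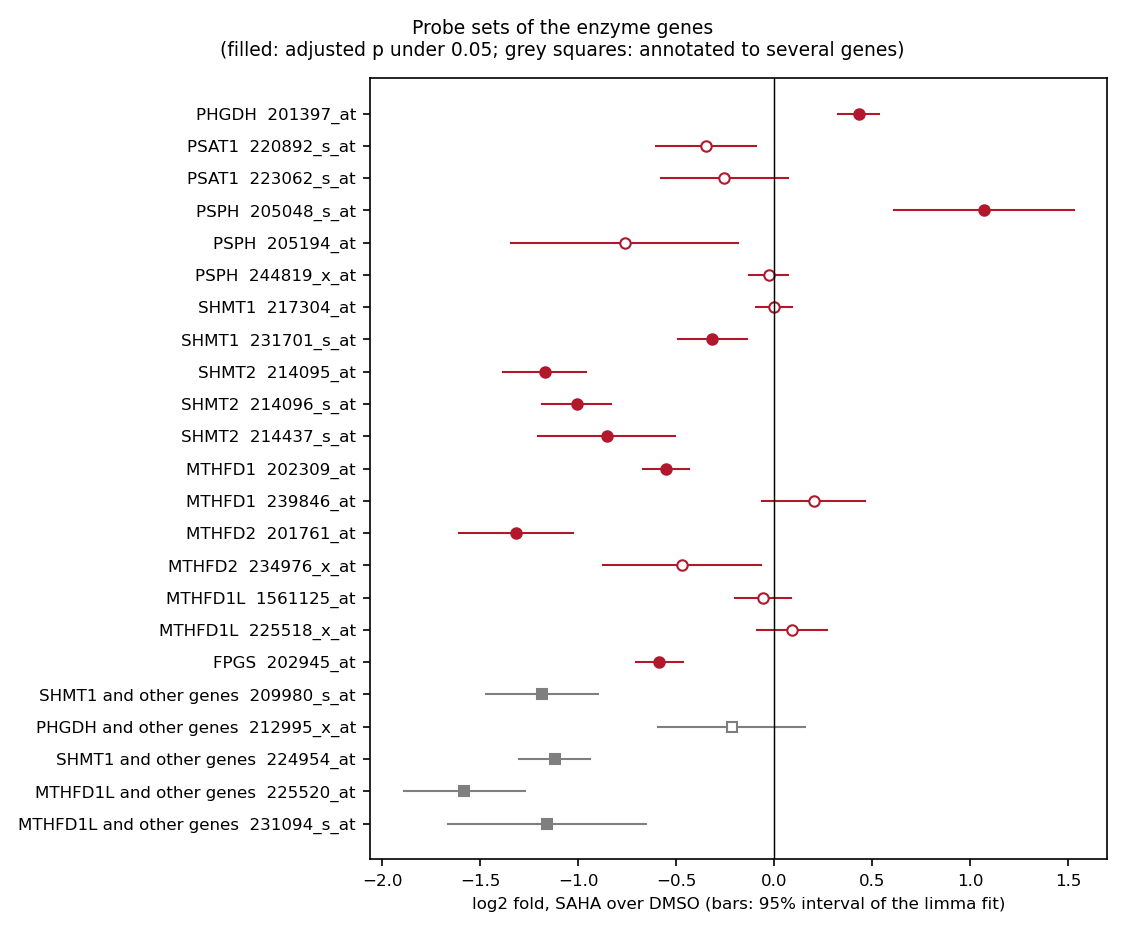
Log2 fold of SAHA over DMSO for the 18 probe sets that the annotation gives to 1 member (red circles) and the 5 it gives to a member and other genes (grey squares), with 95% intervals of the limma fit and filled symbols for adjusted p under 0.05. All 3 SHMT2 probe sets and 4 of the 5 shared ones are filled on the lower side, and the PSPH probe sets lie on both sides of 0.

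Counted by probe set, 2 of the 18 were called higher and 7 lower, while among the 41091 probe sets with 1 gene 22.1% were called, 11% higher and 11.1% lower. The SAHA arrays lay outside the DMSO range for 13 of the 18, against 43.1% of those probe sets. The 5 probe sets that lay below the median intensity on all arrays were not among them. Of the 18, 9 have names that mark shared sequence. Leaving out single arrays gave 1 to 2 called higher and 5 to 8 lower.

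Related enzymes were compared with each other in 6 pairs. Each value is the difference of log2 folds of the brightest probe sets, with an exact permutation test over arrays. MTHFD2 minus MTHFD1 gave -0.77, and the log2 difference between their intensities within an array was -1.61 and -1.96 on SAHA arrays, against -1.02, -0.99 and -1.05 on DMSO arrays. SHMT2 minus SHMT1 gave -0.69, MTHFD1L minus MTHFD1 0.65 and MTHFD1L minus MTHFD2 1.41. PSAT1 minus PHGDH gave -0.69 and PSPH minus PHGDH 0.64. The arrays of the groups did not overlap in any of the 6, and each exact permutation p was 0.1 (two-sided; 0.1 after Benjamini-Hochberg over the 6), the smallest that 2 arrays against 3 allow, so no pair could pass 0.05. The pairs with SHMT1 and MTHFD1L rest on their faint probe sets, so the gaps cannot be taken as differences between the genes. Brighter probe sets listed with other genes gave log2 folds of -1.12 and -1.18 for SHMT1, against -1.01 for SHMT2. Those for MTHFD1L gave -1.58 and -1.16, against -1.32 for MTHFD2 and -0.55 for MTHFD1. Pairs with these shared probe sets were not tested. The pair of PSPH and PHGDH turned to -0.34 with probe sets averaged and to -1.20 without shared-sequence probe sets.

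The gene profiles most like that of MTHFD2 over the 5 arrays were those of APOBEC3G, PER2, VPS36, KIF20A and EXOSC8. Likeness was the root mean square distance between log2 deviations from the DMSO mean, and it ran from 0.034 for APOBEC3G to 0.0625 for EXOSC8 across the 19775 genes. Their log2 folds were -1.37, -1.35, -1.33, -1.33 and -1.29 (limma adjusted p = 0.000812 to 0.00272). With 5 arrays in 2 groups, such likeness says little more than that the folds are alike.

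Around the 9 genes, 57 genes of 7 neighbouring lists were considered, and 51 were measured. Limma called 5 of these higher and 16 lower, where 29.6% of all genes were called, 14% higher and 15.6% lower. Their median log2 fold was -0.12, against -0.03 for all genes.

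**Figure D3:**
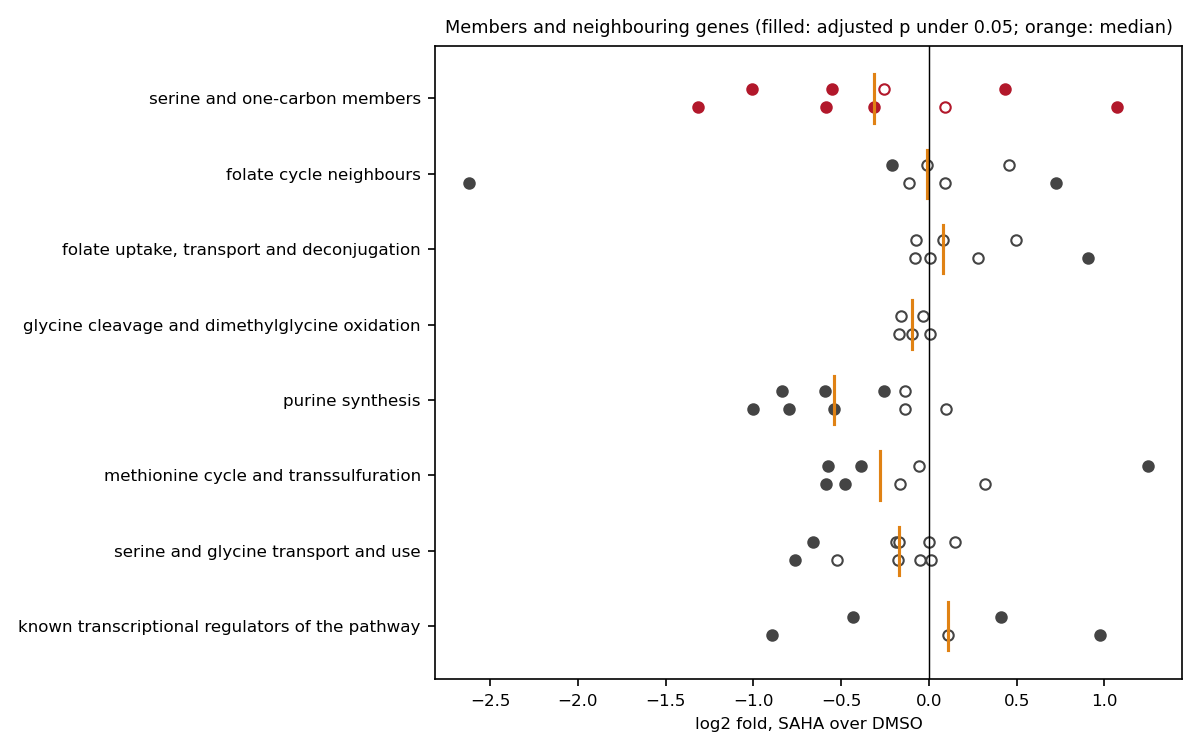
Log2 fold of SAHA over DMSO for the 9 members (red) and the measured genes of the 7 neighbouring lists (dark), filled where limma's adjusted p was under 0.05, with the median of each list in orange. Purine synthesis has the lowest median, -0.54, with 6 of 9 genes filled on the lower side, and TYMS is the gene farthest to the left.

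Purine synthesis consumes formyl groups of the folate pool. Of its 9 measured genes, 6 fell and 0 rose (limma; 0 higher also at an unadjusted p under 0.05 and in the plain equal-variance test), with a median of -0.54. ADSL, the adenylosuccinate lyase, read 1934 and 1961 on SAHA arrays, against 3807, 3774 and 4120 on DMSO arrays, and fell by 1.00 ± 0.06 (SE; limma adjusted p = 0.000829). ATIC, which takes up the last formyl group of the pathway, fell by 0.84 ± 0.06, PFAS by 0.80 ± 0.08 and PAICS by 0.59 ± 0.05 on the log2 scale (SE; limma adjusted p = 0.00136 to 0.00305). PAICS gave -0.23 without shared-sequence probe sets (limma adjusted p = 0.191). Leaving out single arrays left 4 to 6 of the list lower, and leaving out shared-sequence probe sets left 3.

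Among the folate cycle neighbours, 1 of 7 measured genes rose and 2 fell, with a median of -0.01. TYMS, which spends methylenetetrahydrofolate to make thymidylate, read 1668 and 1528 on SAHA arrays, against 9604, 9855 and 9976 on DMSO arrays, and fell by 2.62 ± 0.05 on the log2 scale (SE; limma adjusted p = 0.000341). DHFR2, a folate-reducing enzyme of mitochondria, rose by 0.73 ± 0.05 (SE; limma adjusted p = 0.00104), and by 1.91 without shared-sequence probe sets (adjusted p = 0.00142). MTFMT, which formylates the mitochondrial initiator methionine, fell by 0.21 ± 0.05 (SE; limma adjusted p = 0.0426), a call that ended without DMSO 1, DMSO 3, SAHA 1 or SAHA 2 (0.0913 to 0.133). Without DMSO 1, DMSO 3, SAHA 1 or SAHA 2, 1 gene of this list fell, and without SAHA 1 or SAHA 2, 2 rose.

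Of 7 genes of folate uptake, transport and deconjugation, 1 rose and 0 fell (limma; 0 lower also at an unadjusted p under 0.05 and in the plain equal-variance test), with a median of 0.08. FOLR1, the folate receptor alpha, read 548 and 601 on SAHA arrays, against 293, 332 and 295 on DMSO arrays. Its log2 fold was 0.91 ± 0.08 (SE; limma adjusted p = 0.00224), and 0.50 without shared-sequence probe sets (limma adjusted p = 0.0914). Without SAHA 2, 2 members of the list rose.

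None of 5 genes of glycine cleavage and dimethylglycine oxidation was called by limma (1 lower at an unadjusted p under 0.05, 0 in the plain equal-variance test), with a median of -0.10. GCSH, the lipoyl carrier of the glycine cleavage system, gave -0.17 ± 0.06 and DMGDH -0.16 ± 0.11 (SE; limma adjusted p = 0.115 and 0.366).

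In the methionine cycle and transsulfuration list, 4 of 8 genes fell and 1 rose, with a median of -0.28. MTR, the methionine synthase that takes a methyl group from folate, fell by 0.59 ± 0.07, AHCY, which clears adenosylhomocysteine, by 0.58 ± 0.06, and MAT2A, which makes adenosylmethionine, by 0.48 ± 0.08 on the log2 scale (SE; limma adjusted p = 0.00335 to 0.0132). AHCYL1, a relative of AHCY that binds the inositol trisphosphate receptor, rose by 1.25 ± 0.05 (SE; limma adjusted p = 0.00061), with 7552 and 7249 on SAHA arrays, against 3260, 3099 and 2991 on DMSO arrays. MAT2A was no longer called once DMSO 1, DMSO 3, SAHA 1 or SAHA 2 was omitted (adjusted p, limma, = 0.0559 to 0.0787). The number that fell was 2 without DMSO 3 or SAHA 2, and 1 without shared-sequence probe sets.

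Of 10 genes of serine and glycine transport and use, 2 fell and 0 rose (limma; 0 higher also at an unadjusted p under 0.05 and in the plain equal-variance test), with a median of -0.17. SFXN1, the mitochondrial serine carrier, read 648 and 563 on SAHA arrays, against 1040, 958 and 1078 on DMSO arrays, and fell by 0.76 ± 0.09 (SE; limma adjusted p = 0.00447). Without shared-sequence probe sets SFXN1 gave -0.42 (limma adjusted p = 0.123). SRR, the serine racemase, fell by 0.66 ± 0.15 (SE; limma adjusted p = 0.0299), a call lost whichever array was omitted (0.0583 to 0.124) and without shared-sequence probe sets (-0.13, adjusted p = 0.264). Without DMSO 2, DMSO 3 or SAHA 2, 1 member of the list fell, and without shared-sequence probe sets neither SFXN1 nor SRR was called and 1 other gene rose.

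Of 5 known transcriptional regulators of the pathway, 2 rose and 2 fell, with a median of 0.11. ATF4 read 3091 and 2685 on SAHA arrays, against 4936, 5435 and 5702 on DMSO arrays, and fell by 0.89 ± 0.10 (SE; limma adjusted p = 0.0036). MYC, which is known to induce SHMT2 and MTHFD2, read 5739 and 5136 on SAHA arrays, against 2402, 2789 and 3137 on DMSO arrays, and rose by 0.98 ± 0.13 (SE; limma adjusted p = 0.0068). NFE2L2, the oxidative stress factor NRF2, rose by 0.41 ± 0.08 and EHMT2, a histone H3 methyltransferase, fell by 0.43 ± 0.08 (SE; limma adjusted p = 0.0247 and 0.0173). Omitting SAHA 1 or SAHA 2 ended the call of MYC (adjusted p 0.0749 and 0.0517, limma), and NFE2L2 and EHMT2 lost theirs without DMSO 1, DMSO 2, DMSO 3 or SAHA 1 (0.0581 to 0.10). With probe sets averaged, NFE2L2 gave 0.17 and EHMT2 -0.11 (limma adjusted p = 0.0544 and 0.223). The number that rose was 1 without DMSO 1, DMSO 2, DMSO 3 or SAHA 2 and 0 without SAHA 1, and 1 without shared-sequence probe sets.

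**Figure D4:**
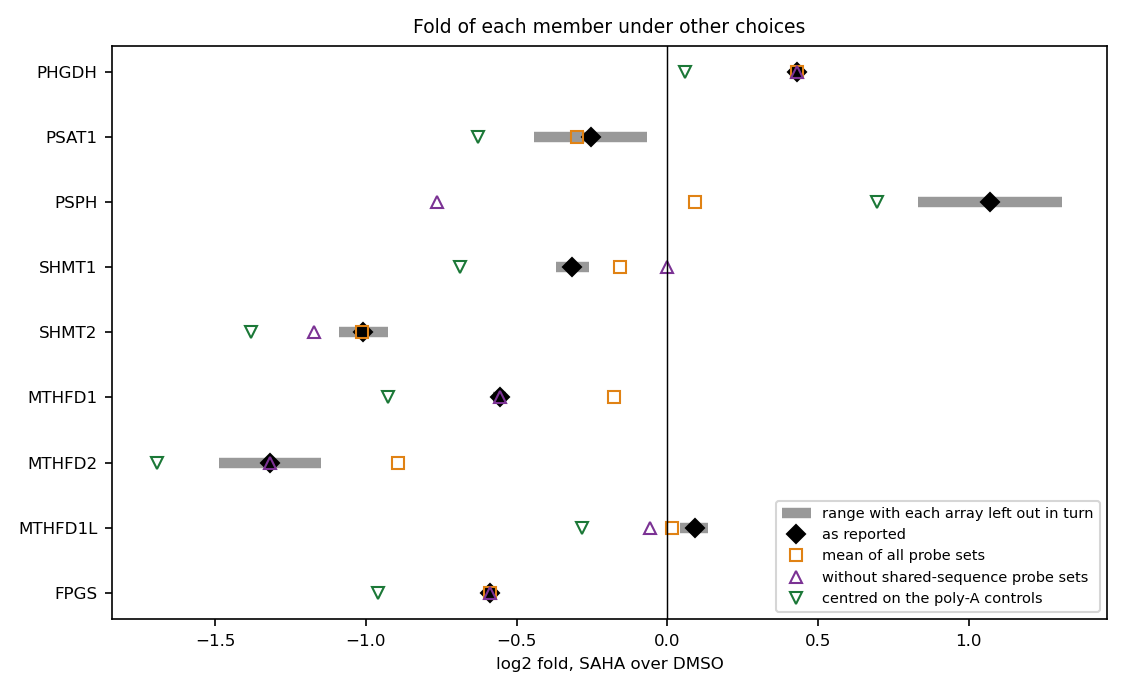
Log2 fold of SAHA over DMSO for each member as reported (black), with each array left out in turn (grey range), with all probe sets of the gene averaged, without shared-sequence probe sets and with arrays centred on the polyadenylated controls. SHMT2, MTHFD1, MTHFD2 and FPGS stay below 0 throughout, PHGDH stays above it, PSPH and MTHFD1L change side, and SHMT1 stands at 0 without shared-sequence probe sets.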

How the data were processed

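Total RNA of 5 samples was hybridised to Affymetrix U133 Plus 2.0 arrays. The authors deposited intensity values on a linear scale, made with RMA in R 2.12 per the submitters' processing notes. RMA corrects background, makes the arrays' distributions alike and summarises the probes of a probe set, so a shift of all transcripts one way is removed. No detection calls come with the table, and signal over background cannot be judged. Of 54675 probe sets, 41091 had 1 gene in the annotation. Symbols were updated through gene identifiers.

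Log2 was taken, and the probe set with the highest mean stood for its gene. SAHA was compared with DMSO with limma 3.58.1 in R 4.3.3 (lmFit and eBayes, no covariate, two-sided, 3 residual and 1.62 prior degrees of freedom), adjusted over 19775 genes or 41091 probe sets. Intervals are 95%. The fit was tested on simulated data. The number of arrays limits the precision. The members, gene lists and alternatives were chosen with earlier results of these data known. All members were named, as were up to 4 called genes of each list with the largest absolute fold (the 2 largest where none was called) and the 5 profiles nearest to the member with the largest called fold. Leaving out genes with equal values and fitting probe sets with several genes were added after the data were seen. Of 57 listed neighbours, 6 were not analysed here.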

Additional observations from a re-analysis of the deposited data

How the results depend on the processing

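The number of arrays and the lack of detection calls limit all values, dim probe sets most. With each array left out, 1769 to 2234 of all genes were called higher and 1985 to 2797 lower. Members called were then 1 to 2 higher and 4 to 5 lower, and their probe sets 1 to 2 higher and 5 to 8 lower. Pair differences ranged from -0.72 to -0.65 (SHMT2 minus SHMT1), -0.94 to -0.59 (MTHFD2 minus MTHFD1), 0.58 to 0.69 (MTHFD1L minus MTHFD1), 1.20 to 1.62 (MTHFD1L minus MTHFD2), -0.86 to -0.52 (PSAT1 minus PHGDH) and 0.42 to 0.86 (PSPH minus PHGDH). Without SAHA 2, MTHFD1L probe set 1561125_at gave 0.011 and without SAHA 1 -0.13. With probe sets averaged, 2971 of all genes were called higher and 3074 lower. Of the members 1 was then called higher and 3 lower, and PSPH minus PHGDH gave -0.34. Without shared-sequence probe sets, 2176 of the genes that keep a probe set were called higher and 2105 lower. Of the members 1 was called higher and 4 lower, and PSAT1 was not tested. PSPH gave -0.76, MTHFD1L -0.058 and PSPH minus PHGDH -1.20. Centred on the polyadenylated controls, 1380 genes were higher and 14740 lower (8.56% of called genes higher, against 47.2%), 1 member and 1 of their probe sets were higher and 15 probe sets lower, MTHFD1L and its probe set 225518_x_at gave -0.28, and MTHFD1 probe set 239846_at gave -0.17. At adjusted p under 0.01, 1544 genes were higher and 1773 lower, with 1 member and 1 probe set higher. The plain equal-variance test gave 1538 higher and 1831 lower, with 1 member and 1 probe set higher. Without dim genes, 4 members were lower, since SHMT1 and MTHFD1L were not tested. Dropping probe sets with equal values in a group gave lower calls for 205194_at of PSPH, 234976_x_at of MTHFD2 and 220892_s_at of PSAT1. Their limma adjusted p was 0.00516, 0.0177 and 0.0252. Probe set 205194_at was also called lower with quantile normalization applied again and without dim probe sets (limma adjusted p = 0.0314 and 0.0382). For these changes the cause was not tested, apart from the choice of probe set and the tighter threshold. With a replicate block, 1262 genes were higher and 1316 lower, and limma called 0 members higher, 4 lower, and 0 of the 18 probe sets either way (2 higher and 5 lower genes, 2 higher and 7 lower probe sets at an unadjusted p under 0.05). That fit has 1 residual degree of freedom, drops DMSO 3, and rests on a shared number only. Same-numbered arrays correlated at 0.15 and -0.07. With 2 SAHA arrays such values mirror each other and cannot show whether replicates were paired. Of 149 member folds under alternatives, 125 kept direction and side, 19 lost a call, 2 gained one and 3 changed sign.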

Other observations

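MTHFD2L, the paralogue of MTHFD2 in mitochondria, is not among the 9 genes and was singled out after its values were seen, because it lay on the other side of DMSO from MTHFD2. Its brightest probe set, 238762_at, read 2606 and 2004 on SAHA arrays, against 1709.7, 1643 and 1646 on DMSO arrays. Both SAHA arrays were higher, giving 0.46 ± 0.12 on the log2 scale (SE; adjusted p over probe sets = 0.0663, limma). Of its 8 probe sets, 3 were called higher and 0 lower by limma over probe sets, and 2 were below the median intensity on all arrays. Probe set 239562_at gave the highest of the called folds, with 666 and 523 on SAHA arrays, against 371, 359 and 402 on DMSO arrays (log2 fold 0.65 ± 0.12, SE; limma adjusted p = 0.0262). The difference between MTHFD2L and MTHFD2 was not tested.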
